A study of Rattus norvegicus with 24 samples.

Results

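Expression of 8 genes, the actin isoforms Acta1, Actc1, Acta2, Actb and Actg1 and the smooth muscle-type genes Tagln, Cnn1 and Myl9, was followed in rat tibialis anterior (TA) muscle over 30 days of resistance training. The genes were chosen by name, and every row of the transcript table with one of these symbols was summed per gene. A row was found for 7 of the 8, and these 7 passed the filter on low values, which asked for 3 or more muscles at 1 or higher. Cnn1 passed it mainly through the trained muscles, 7 of which and 1 of the 12 controls reached 1. They stand among 15273 gene symbols in the table, of which 11196 were tested. Actg1, the gene of cytoplasmic gamma-actin, was not found by its symbol and is not analysed here.

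TA muscles came from 12 male Wistar rats, 3 at each of 2, 10, 20 and 30 days of training. The trained group at each time point was the left TA, which an implanted pulse generator made contract daily against the co-contracting plantarflexors ("SpillOver" training). The control was the unstimulated right TA of the same animals, so the 12 contralateral controls carried no training but belonged to trained and operated rats. Both muscles were taken 1 h after the last session. Per the study's methods the mid-belly went to histology, and polyadenylated RNA from part of the remaining tissue was sequenced for all 24 muscles. Muscles of sham-operated animals are not analysed here. The labels give no age.

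Actin is the filament on which myosin pulls, and each of its genes serves a different site. Acta1 encodes the thin filament actin of adult skeletal muscle, Actc1 the actin of the heart that immature skeletal muscle also uses, and Acta2 that of vascular smooth muscle. Actb and Actg1 encode the cytoplasmic actins present in all cells. Tagln (transgelin), Cnn1 (calponin 1) and Myl9 (a regulatory myosin light chain) belong to the contractile apparatus of smooth muscle. Many of these genes are textbook targets of serum response factor (SRF), which binds the CArG box together with actin-sensing cofactors of the myocardin family.

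A promoter window, from 250 bases before the start site to 50 after it, was at hand for 5 of the 8 genes from RefSeq (build GRCr8). A CArG box was searched on both strands in the 250 bases before the start site. The box was taken as CC, then only A or T, then GG, over 10 letters. It was found in 2 of the 5, Acta1 and Actg1, and in 501 of all 33469 promoters (1.497%). Actc1, Acta2 and Cnn1 held no exact match there. Boxes with another letter inside were not searched for, so a CArG-like box near these genes is not excluded. Both matches are shown because they place the box that links the gene family, with 20 bases on either side and the 10 letters of the box in capitals. The Acta1 box lies 94 to 85 bases before the start site on the minus strand, in chr19:68784259-68784308. The Actg1 box lies 90 to 81 bases before the start site on the minus strand, in chr10:106121012-106121061.
Acta1: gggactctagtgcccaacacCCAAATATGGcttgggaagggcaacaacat
Actg1: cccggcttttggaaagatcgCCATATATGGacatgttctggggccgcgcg

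In the authors' build, Rnor_6.0, Acta1 is at 19:56674074-56677085 on the minus strand, Actc1 at 3:105507403-105512940 on the minus strand and Acta2 at 1:252537615-252550395 on the minus strand. Actb has 2 transcripts, at 12:13715843-13718813 and 12:13716596-13718842 on the plus strand. Tagln is at 8:50222896-50228370 on the minus strand, Cnn1 at 8:23113048-23121762 on the plus strand and Myl9 at 3:152857592-152863961 on the plus strand. No other gene of the table overlaps any of them. The actin genes encode closely similar proteins. How reads matching more than 1 of these genes were assigned is not given in the sources used here. The split between actin isoforms is therefore uncertain to an extent that was not tested.

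Values are the deposited TPM-type values, which correct for transcript length, divided by 1 factor per muscle (0.778 to 1.14). Depth per muscle cannot be read from them. Fold changes are on the log2(value + 1) scale, which understates the change of the lowest gene, Cnn1. A change was called at an adjusted p under 0.05 in limma, with Benjamini-Hochberg adjustment over all tested genes. All 4 time points were compared with the same 12 contralateral controls. A second fit, with the animal as a block, compared each trained muscle with the other TA of the same rat. Without the division the 30-day log2 fold change of the median gene was −0.18 rather than −0.01, and 20.1% rather than 54.0% of all calls were higher. The latter figure was 74.4% rather than 53.4% at 2 days and 75.3% rather than 53.9% at 10 days. The tissue label held, since fast fiber genes were abundant in the controls, with muscle creatine kinase (Ckm) at a mean of 15502 and troponin T3 (Tnnt3) at 12930.

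In the contralateral controls the 7 genes spanned a wide range of levels per length. Acta1 was the third most abundant gene of the table, at 25377 ± 1752 (SD, n = 12). Actb followed at 140 ± 14.1, Tagln at 24.9 ± 8.46, Actc1 at 20.9 ± 7.64, Acta2 at 18.4 ± 5.77, Myl9 at 12.5 ± 3.48 and Cnn1 at 0.576 ± 0.450. Acta1 exceeded Actb, Actb exceeded Tagln, Acta2 exceeded Myl9 and Myl9 exceeded Cnn1 in all 12 muscles. Tagln exceeded Actc1 in only 7 of 12 and Actc1 exceeded Acta2 in 6 of 12, so the order of these 3 was not resolved.

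After 2 days of training 5 of the 7 genes were called higher, namely Actb, Tagln, Cnn1, Myl9 and Acta2, where 15.4% of all tested genes were called higher. At 10 days Actb, Acta2 and Acta1 were called higher, 3 of 7 against 15.6% of all genes. Since the filter favors a rise of Cnn1, its calls add no support to the counts of either fit. Actb alone was called at 20 days (11.7% of all genes called higher) and at 30 days (11.1%). None of the 7 was called lower, where 13.5%, 13.3%, 9.64% and 9.46% of all genes were at 2, 10, 20 and 30 days. With the animal as a block the calls were different. Actb and Actc1 were called at 2 days (11.8% of all genes), Actb and Tagln at 10 days (12.1%), Actb at 20 days (9.94%) and Actb and Cnn1 at 30 days (7.21%).

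**Figure D1:**
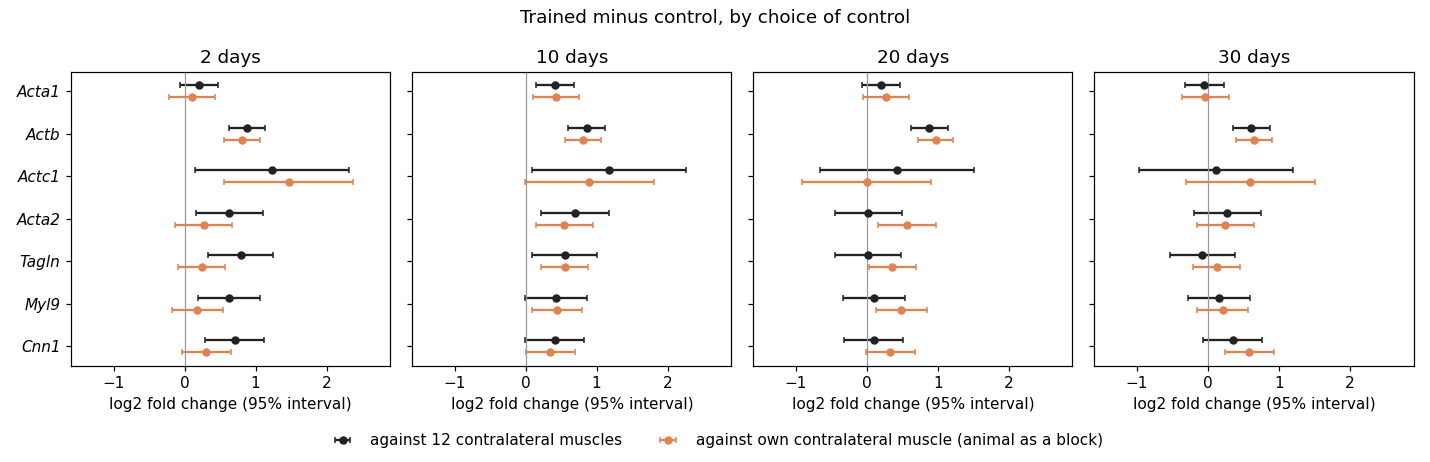
Log2 fold change of each gene, with 1 panel each for 2, 10, 20 and 30 days of training. The horizontal axis is the log2 fold change, trained minus control, on the log2(value + 1) scale, with its 95% interval. The vertical axis lists the 7 genes. Each gene is shown once against the 12 contralateral muscles and once with the animal as a block. Actb stays between 0.62 and 0.97 in all 8 estimates, while Tagln, Acta2, Myl9 and Cnn1 at 2 days lie lower with the animal as a block.

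Acta1, the bulk of all actin message in this muscle, was called higher only at 10 days. The controls ran from 22156 through a median of 25434 to 27935. The 10-day trained muscles were at 30747, 41312 and 30101, all above every control, as held for 10.0% of all tested genes. Its log2 fold change there was 0.41 (SE 0.13, adjusted p = 0.0202, limma). It was 0.43 with the animal as a block, where the call was lost (adjusted p = 0.0654), and 0.26 without the muscle at 41312 (trained 10 days, replicate 2; adjusted p = 0.218).

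At the other time points Acta1 was not called. At 2 days the trained muscles were at 27396, 30535 and 29342, a log2 fold change of 0.20 (adjusted p = 0.266). At 20 days they split, with 34570 and 36511 above and 19587 below all controls, and the log2 fold change was 0.20 (adjusted p = 0.303). Without the low muscle (trained 20 days, replicate 3) it was 0.49 with an adjusted p of 0.00332 in limma. At 30 days the muscles were back within the control range, at 23601, 27446 and 22658, with a log2 fold change of −0.05 (adjusted p = 0.838).

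Actc1, the cardiac actin of immature skeletal muscle, varied widely between trained muscles. The controls ran from 11.3 through 18.9 to 30.5. At 2 days the trained muscles were at 19.2, 55.2 and 100.4, each 1.70 to 4.03 times the other TA of the same rat. At 10 days they were at 70.7, 134.8 and 9.46. The first 2 lay above all controls and the last below all of them. At 20 days they were at 34.6, 12.2 and 44.8 and at 30 days at 22.5, 31.6 and 13.7.

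For Actc1 the log2 fold change was 1.24 at 2 days (SE 0.53, adjusted p = 0.0812) and 1.18 at 10 days (adjusted p = 0.0973), not called against the 12 controls. With the animal as a block it was 1.47 at 2 days and was called (adjusted p = 0.0240, limma), and 0.90 at 10 days (adjusted p = 0.154). The muscle at 9.46 (trained 10 days, replicate 3) decided the 10-day value. Without it the log2 fold change at 10 days was 2.26 (adjusted p = 0.00107, limma), and that at 2 days, 1.24, was also called (adjusted p = 0.0235, limma). Without the 2-day muscle at 19.2 (replicate 1) the 2-day value was 1.87 (adjusted p = 0.0179, limma). At 20 and 30 days the values were 0.43 (adjusted p = 0.625) and 0.12 (adjusted p = 0.902). The same 10-day muscle held 30101 of Acta1, so its low Actc1 went with an Acta1 level above all controls.

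Actb, cytoplasmic beta-actin, was higher at every time point and in every animal. The controls ran from 124 through 137 to 175. After 2 days the trained muscles were at 192, 351 and 250, and after 10 days at 279, 243 and 239. They held 248, 286 and 241 after 20 days and 238, 201 and 204 after 30 days. All 12 trained muscles lay above all 12 controls. Among all tested genes the 3 trained muscles of a time point lay above all controls in 8.57%, 10.0%, 8.23% and 7.48%, from the earliest to the latest. Within animals the trained muscle held 1.39 to 2.01 times the level of the other TA, with a median of 1.82 over the 12 rats.

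Actb had a log2 fold change of 0.88 at 2 days (SE 0.12, 95% interval 0.62 to 1.13, adjusted p = 1.02e-05, limma). The later values were 0.86 after 10 days (adjusted p = 1.11e-05), 0.88 after 20 (1.30e-05) and 0.62 after 30 (9.39e-04). With the animal as a block the values were 0.81, 0.80, 0.97 and 0.65, and all 4 were called. The 30-day value depended on the scaling. It was 0.39 (adjusted p = 0.0360, limma) on the values as deposited, and 0.41 (adjusted p = 0.0656) when only the more abundant of the 2 transcripts was used. The difference between 30 and 2 days was −0.26 (95% interval −0.58 to 0.06, adjusted p = 0.281). The less abundant transcript (Actb-202) made up 34.9 ± 7.30% of Actb in the controls (SD, n = 12) and 33.3%, 35.2%, 39.7% and 43.4% on average at 2, 10, 20 and 30 days. These shares did not differ by an exact permutation test (smallest adjusted p = 0.387).

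**Figure D2:**
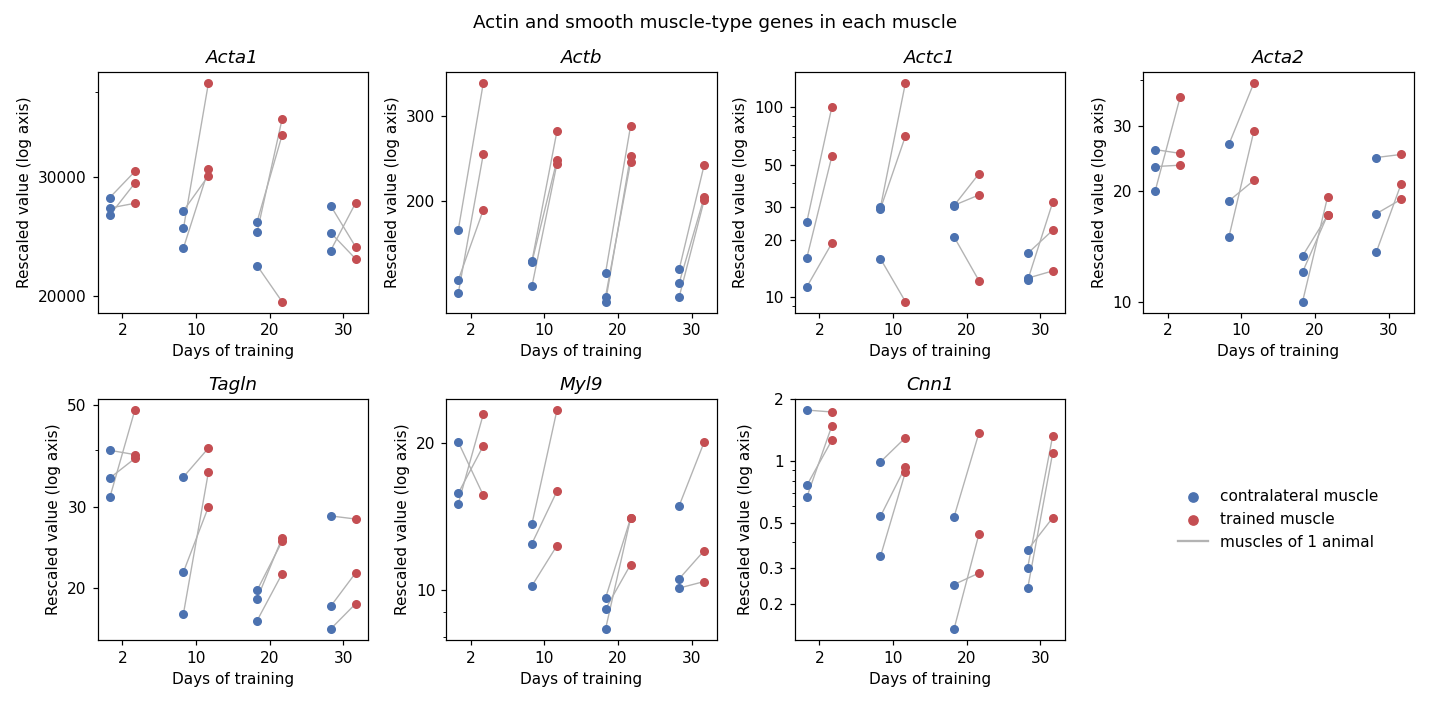
Expression of the 7 genes in each of the 24 muscles (vertical axis: TPM-type units after division by 1 factor per muscle, logarithmic; horizontal axis: day and side), with a line joining the 2 muscles of an animal. All 12 trained muscles exceed 175 for Actb, the highest control, while Tagln is at 31.5 to 39.9 in the 2-day contralateral muscles and at 16.97 to 19.8 in the 20-day ones.

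A row closely related to the missing Actg1 followed the pattern of Actb. LOC100361457, at 3:75643054-75644955 in Rnor_6.0, carries the RefSeq symbol Actg1l1, a gamma-actin-like gene; whether reads of Actg1 were counted there was not tested. It was at 113 ± 14.2 in the controls (SD, n = 12) and at 195 ± 37.5, 217 ± 28.1, 234 ± 12.5 and 204 ± 4.34 after 2, 10, 20 and 30 days (n = 3 each). Its log2 fold changes were 0.78, 0.94, 1.05 and 0.86, with a largest adjusted p of 1.23e-05 in limma. All 12 trained muscles lay above all controls.

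Markers of fibroblasts and macrophages rose with Actb. Of 8 fibroblast markers 7, 8, 8 and 8 were called higher at 2, 10, 20 and 30 days, and of 9 macrophage markers 7, 8, 9 and 9. Of all genes 15.4%, 15.6%, 11.7% and 11.1% were called higher. Of 6 endothelial markers 0 were called higher and 1 lower at 2 days. At 10, 20 and 30 days 3, 3 and 2 of them were called higher and 0 lower. The summed fibroblast markers ran from 76.8 to 261 in the controls and from 309 to 1030 in the trained muscles. The summed macrophage markers ran from 16.5 to 36.8 in the controls and from 50.1 to 159 in the trained muscles. No fibroblast or macrophage marker was at 0 throughout a group. Their part in the Actb result was not tested. In RNA of mixed muscle tissue, a change in the number of cells of a type and a change in RNA per cell cannot be told apart.

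The balance of isoforms within a muscle does not depend on the scaling between muscles. Actb made up 0.548 ± 0.0508% of the summed level of Acta1, Actc1, Acta2 and Actb in the controls (SD, n = 12). After 2 and 10 days it made up 0.889 ± 0.222% and 0.755 ± 0.159%, and after 20 and 30 days 0.899 ± 0.271% and 0.871 ± 0.136% (n = 3 each). By two-sided exact permutation tests, adjusted over 12 tests, the adjusted p was 0.00879, 0.0264, 0.00879 and 0.00879. The smallest raw p that 3 against 12 muscles allow is 0.0022, and it was reached at 2, 20 and 30 days. The 10-day difference did not pass without trained replicate 1 (0.137 percentage points, exact permutation, adjusted p = 0.105) or 3 (0.191, 0.0879). Over the 12 rats the share was higher in the trained TA in 11 of 12, by 0.306 ± 0.173 percentage points (exact sign-flip p = 9.77e-04, adjusted p = 0.00293).

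Actc1 made up 0.0834 ± 0.0336% of Acta1 and Actc1 in the controls. The trained means were 0.197%, 0.195%, 0.120% and 0.0904% at 2, 10, 20 and 30 days. None passed after adjustment (exact permutation, adjusted p = 0.0527, 0.0615, 0.311 and 0.769). The 2-day difference passed without trained replicate 1 (exact permutation, adjusted p = 0.0264) or the 20-day contralateral replicate 3 (0.0396), and the 10-day one without trained replicate 3 (0.0330). Over the 12 rats the share was higher in the trained TA in 9 of 12, by 0.0674 ± 0.0920 percentage points (exact sign-flip adjusted p = 0.0359, against 0.0758 by permutation without pairing). The Acta2 share of the 4 actin genes (Acta1, Actc1, Acta2 and Actb) was 0.0715 ± 0.0194% in the controls and 0.0959%, 0.0916%, 0.0629% and 0.0886% in the trained muscles. It passed at no time point (exact permutation, smallest adjusted p = 0.121) and was higher in 7 of 12 rats (exact sign-flip p = 0.0581).

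**Figure D3:**
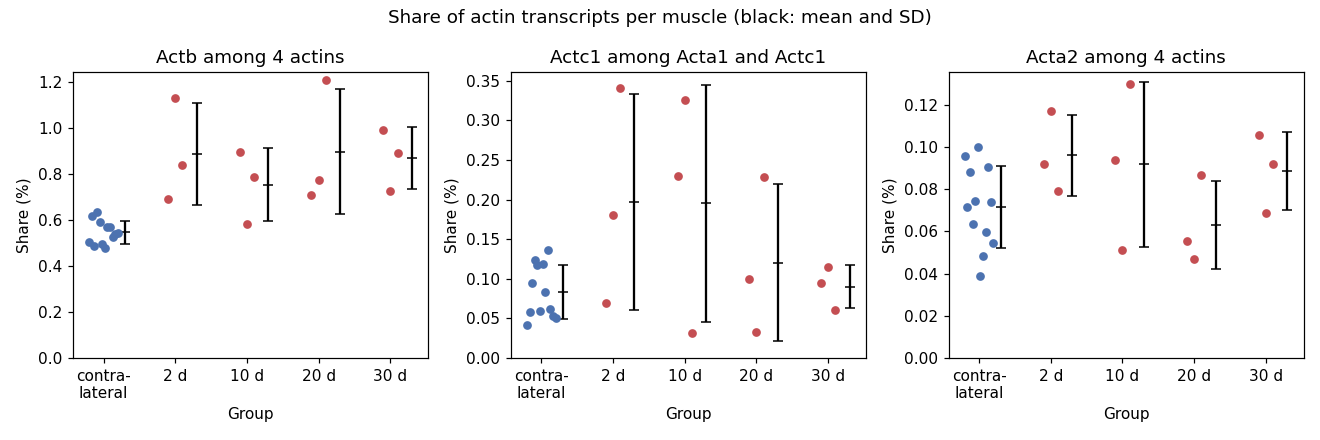
Shares of actin isoforms in each muscle group (vertical axis: percent; horizontal axis: contralateral controls and the 4 training times), with the mean and SD. Actb rises from 0.548% of the 4 actins in the controls to between 0.755% and 0.899% in the trained groups, where 1 of the 12 trained muscles (10 days, replicate 2, at 0.583%) lies within the control range of 0.480% to 0.634%.

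The 4 smooth muscle-type genes were called higher at 2 days against the 12 controls, and none of these calls held against the other TA of the same rats. Tagln, an actin-binding protein of smooth muscle, ran from 16.3 through 20.7 to 39.9 in the controls. The 2-day trained muscles were at 38.3, 48.8 and 39.0, of which 1 lay above all controls. The contralateral muscles of these 3 rats were at 34.7, 31.5 and 39.9, against 16.97 to 19.8 in the 20-day rats. The log2 fold change at 2 days was 0.79 against the 12 controls (SE 0.22, adjusted p = 0.00959, limma) and 0.24 with the animal as a block (adjusted p = 0.290). Without trained replicate 2 it was 0.68 (adjusted p = 0.0974).

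Tagln was then called at 10 days in the paired fit only. The 10-day trained muscles were at 35.8, 30.1 and 40.4 and their contralateral muscles at 17.6, 21.7 and 34.9. The log2 fold change was 0.55 in both fits, with an adjusted p of 0.0679 against the 12 controls and 0.0219 with the animal as a block (limma). Against the 12 controls it was also called on the values as deposited (0.67, adjusted p = 0.0307) and without the 2-day contralateral replicates 1 or 3 or the 10-day contralateral replicate 3 (0.60, 0.61 and 0.60). At 20 and 30 days the values against the 12 controls were 0.02 (limma, adjusted p = 0.967) and −0.08 (adjusted p = 0.846). Within animals the 20-day trained muscle was higher in 3 of 3 rats, at 1.27 to 1.36 times the other TA. At 30 days it was higher in 2 of 3, at 0.984 to 1.18 times.

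Acta2, the actin of vascular smooth muscle, ran from 10.0 through 18.1 to 26.8 in the controls. It was at 25.3, 36.2 and 23.5 in the trained and 25.96, 20.1 and 23.3 in the contralateral muscles of the 2-day rats. At 10 days it was at 29.2, 21.4 and 39.4 in the trained and 15.03, 18.8 and 26.8 in the contralateral muscles. The ranges overlapped with those of the controls at every time point. The log2 fold change was 0.63 at 2 days (SE 0.23, adjusted p = 0.0416, limma) and 0.69 at 10 days (adjusted p = 0.0254). With the animal as a block it was 0.27 (adjusted p = 0.348) and 0.54 (adjusted p = 0.0577). The 2-day call was also lost with a pseudocount of 0.1 (adjusted p = 0.0527), with no filter on low values (adjusted p = 0.0553) and without any 1 of the 3 trained muscles or of 6 contralateral ones (10 days replicate 1, 20 days replicates 1, 2 and 3, 30 days replicates 2 and 3), with an adjusted p of 0.05003 to 0.306. The 10-day call was lost without trained replicate 1 (0.69, adjusted p = 0.0859) or 3 (0.48, adjusted p = 0.203). At 20 days it was 0.02 against the 12 controls, whereas the paired value was 0.57 (adjusted p = 0.0528), and at 30 days it was 0.28 (adjusted p = 0.433).

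Myl9, the light chain that regulates smooth muscle myosin, ran from 8.32 through 11.5 to 20.1 in the controls. At 2 days the trained muscles were at 19.7, 22.9 and 15.6 and the contralateral ones at 15.8, 15.03 and 20.1, so the trained muscle was the lower one in 1 of 3 rats. At 2 days this was a log2 fold change of 0.63 (SE 0.21, adjusted p = 0.0304, limma) and 0.18 with the animal as a block (adjusted p = 0.476). It was 0.61 without trained replicate 1 (adjusted p = 0.0771) and 0.50 without trained replicate 2 (adjusted p = 0.214). Later values against the 12 controls were 0.43 at 10 days (limma, adjusted p = 0.138), 0.10 at 20 days (0.792) and 0.16 at 30 days (0.649). Beside the other TA of the same rat the trained muscle was higher in 3 of 3 rats at each of these times. At 20 days it held 1.23 to 1.68 times as much.

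Cnn1, which restrains smooth muscle contraction, was near the lower end of detection, from 0.151 through 0.451 to 1.77 in the controls. At 2 days the trained muscles were at 1.26, 1.48 and 1.74 and the contralateral ones at 0.759, 0.666 and 1.77. At 30 days they were at 1.33, 1.10 and 0.528 against 0.301, 0.239 and 0.368, which is 1.44 to 4.60 times as much. The log2 fold change at 2 days was 0.70 (SE 0.20, adjusted p = 0.0108, limma) and 0.31 with the animal as a block (adjusted p = 0.194). The call was lost without trained replicate 2 (0.70, adjusted p = 0.0580) or 3 (0.63, adjusted p = 0.0694). At 30 days it was 0.36 (adjusted p = 0.225) and 0.59 with the block, where it was called (adjusted p = 0.0302, limma). The 10-day value was 0.41 (limma, adjusted p = 0.132), and it was 0.49 and called at 0.0320 without the 2-day contralateral replicate 3. The 20-day value was 0.10 (limma, adjusted p = 0.777). Within animals the 20-day trained muscle was higher in 3 of 3 rats, at 1.14 to 2.92 times the other TA.

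The contralateral muscles were compared with each other. In a limma F test over the 4 contralateral groups 4 of the 7 genes had an unadjusted p under 0.05, against 9.04% of all genes. The p was 0.00259 for Tagln, 0.00462 for Acta2, 0.0114 for Myl9 and 0.0279 for Cnn1. None passed after adjustment over all genes (adjusted p = 0.311, 0.352, 0.418 and 0.492), where 0.152% of genes did. For Acta1, Actb and Actc1 the unadjusted limma p was 0.816, 0.745 and 0.506. The Tagln mean was 35.4 in the 2-day contralateral muscles and 18.6 in the 20-day ones, and that of Acta2 was 23.1 and 11.8. Within animals the trained muscle was the higher one in 10 of 12 rats for Tagln, 11 for Acta2, 11 for Myl9 and 11 for Cnn1.

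Markers of vascular smooth muscle and pericytes were called in both directions. At 2 days 1 of 9 was called higher and 2 lower, at 10 and 20 days 3 higher and 1 lower, and at 30 days 2 of each. Of all genes 15.4%, 15.6%, 11.7% and 11.1% were called higher and 13.5%, 13.3%, 9.64% and 9.46% lower. No direction is read from these few calls. The summed level of these markers ran from 83.8 to 128 in the controls and from 74.3 to 89.7 in the 2-day trained muscles. None was at 0 throughout a group. Myh11, the myosin heavy chain of smooth muscle, had a log2 fold change of 0.37 at 2 days (adjusted p = 0.263) and 0.06 with the animal as a block (adjusted p = 0.862). Lmod1, which nucleates actin filaments in smooth muscle, was called lower at all 4 time points, from a control mean of 12.3 to 3.84 at 2 days (log2 fold change −1.51, adjusted p = 9.38e-06, limma) and 2.39 at 30 days (−1.99, 3.59e-07). The part of vessel content in the values of the 4 genes was not tested.

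**Figure D4:**
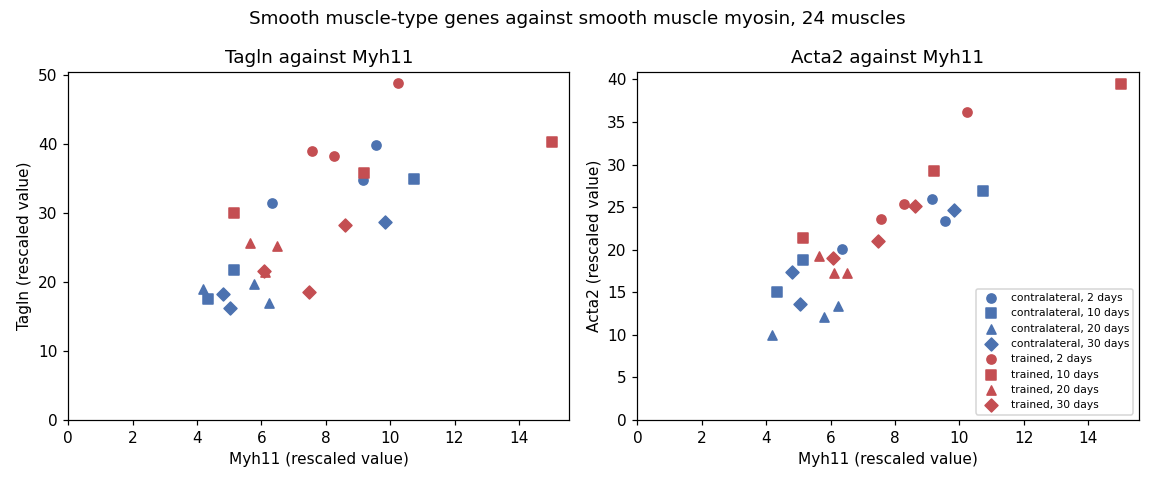
Tagln and Acta2 (vertical axes) against Myh11 (horizontal axis) in the 24 muscles, all in TPM-type units after division by 1 factor per muscle, trained and contralateral muscles marked apart. Muscles with more Myh11 hold more Acta2 (r = 0.86 on the log2 scale) and more Tagln (r = 0.77).

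Among 5859 genes with a mean of at least 5, the ones most like each member over the 24 muscles were ranked by Pearson's r of the log2 values, as a description, since the muscles share animals and training. Myh11 was first for Acta2 (r = 0.86), Tagln (0.77) and Myl9 (0.77). For Actb they were Tuba1a, an alpha-tubulin (0.97), Cfl1, the actin-severing cofilin (0.96), and LOC100361457 (0.96). Within the controls alone these 3 had an r with Actb of 0.72, 0.38 and 0.83, and within the trained muscles 0.83, 0.93 and 0.67. For Actc1 the first was Casq2, the calsequestrin of slow and cardiac muscle (0.82), for Acta1 Use1 (0.88) and for Cnn1 AABR07038873.1 (0.74). The r of Actc1 with Casq2 was 0.19 within the controls and 0.87 within the trained muscles.

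Between time points 1 of the 7 genes differed. Tagln was lower after 30 than after 2 days of training by a log2 difference of −0.87 (SE 0.28, adjusted p = 0.0384, limma), where 7.91% of all genes were called lower. With the animal as a block the contrast is another one, between the within-animal changes of the 2 groups. These changes differed by −0.11 (limma, adjusted p = 0.828). The call on the trained level was lost without the 2-day trained replicates 2 or 3 or the 30-day trained replicates 2 or 3. The adjusted p was then 0.0725 to 0.166 in limma. For the other 5 pairs of time points no gene of the 7 passed limma after adjustment, where 1.93%, 8.05%, 0.17%, 3.94% and 0.0357% of all genes did. At an unadjusted p under 0.05 the 2-day group differed from the 10-day group in 0 of 7 (14.9% of all genes) and from the 20-day group in 3 (22.5%). The 10-day group differed from the 20-day group in 1 (9.38%) and from the 30-day group in 2 (19.5%). The last 2 groups differed in 0 (6.81%).

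Most of the listed genes of proteins that build and turn over cytoplasmic actin filaments were called higher. This list was assembled with earlier results of these data known, so its direction is not independent evidence. Of all genes 15.4%, 15.6%, 11.7% and 11.1% were called higher at 2, 10, 20 and 30 days. Of 31 tested regulators 25, 26, 21 and 18 were called higher at 2, 10, 20 and 30 days and 0 lower, and the list median log2 fold change was 0.69, 0.70, 0.65 and 0.51 beside −0.01, −0.03, −0.03 and −0.01 for all genes. Paired within animals 22, 24, 19 and 16 were higher. On the values as deposited the 30-day count was 13, where 653 of all 11196 genes were called higher. Myl12a, a regulatory light chain of non-muscle myosin, went from a mean of 183 to 1240 at 2 days (log2 fold change 2.55, adjusted p = 1.22e-07, limma). Enah, which elongates actin filaments, rose by 2.50 at 2 days (2.15e-06) and 1.10 at 30 days (0.0150). The filament-severing Gsn rose by 1.31, 1.76 and 1.54 at 10, 20 and 30 days. Cfl1 rose by 1.03 at 20 days (2.15e-06), Coro1c by 1.18 at 20 days and the bundling protein Pls3 by 1.03 at 30 days. Capg, which caps filament ends, rose by 1.17 at 2 days.

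Genes of proteins that assemble the thin filaments of the sarcomere had calls in both directions. Of 21 tested, 10 were higher and 1 lower at 2 days, and 10 and 4 after 10 days. The numbers were 4 and 3 after 20 days and 8 and 3 after 30. Of all genes 15.4%, 15.6%, 11.7% and 11.1% were called higher and 13.5%, 13.3%, 9.64% and 9.46% lower. No fall of the list is read from its lower calls. The list median was 0.27, 0.30, 0.07 and 0.21. In the paired fit 9, 8, 3 and 3 were higher and 0, 2, 3 and 1 lower. On the values as deposited the 30-day split turned to 3 higher and 6 lower. In that setting 653 of all 11196 genes were called higher and 2590 lower. Xirp1, an actin-binding repeat protein, rose by a log2 fold change of 4.30, 4.15, 3.39 and 2.94, from a control mean of 45.1 to 873 at 2 days. Klhl40, which stabilizes thin filament proteins, rose by 3.42, 2.89, 2.10 and 1.53. Lmod2, the leiomodin that lengthens thin filaments, rose by 2.56, 2.49, 1.86 and 1.69. All 12 values passed limma (largest adjusted p = 1.21e-06).

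SRF, its cofactors and known targets other than the 8 genes were higher in 17, 15, 14 and 12 of 21 tested at 2, 10, 20 and 30 days, with 0, 0, 2 and 1 lower and a list median of 1.04, 0.92, 0.73 and 0.62. Of all genes 15.4%, 15.6%, 11.7% and 11.1% were called higher. Paired within animals the count of the list was 14, 14, 14 and 10. The list was assembled with earlier results of these data known, so its direction is not independent evidence. Ankrd1, a stretch-responsive titin-binding protein, rose by a log2 fold change of 6.92 at 2 days (adjusted p = 4.41e-10), 4.63 at 10 days (2.40e-07) and 2.47 at 30 days (0.00114) in limma. The immediate early genes Egr1 and Fos rose by 4.76 and 4.30 at 2 days and by 3.25 and 2.49 at 30 days. Junb rose by 2.78 at 20 days.

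Other smooth muscle contractile genes were higher in 4, 7, 6 and 6 of 14 tested and lower in 1 at each time point, Lmod1. Of all genes 15.4%, 15.6%, 11.7% and 11.1% were called higher and 13.5%, 13.3%, 9.64% and 9.46% lower. The list median was 0.33, 0.57, 0.26 and 0.32. The paired fit called 3, 7, 6 and 6 higher, and the list median was 0.09 at 2 days, 0.51 at 10, 0.57 at 20 and 0.33 at 30 days. Cnn2, the calponin of non-muscle cells, rose by 1.20, 1.18, 1.46 and 1.27, from a control mean of 3.11 to 10.6 at 20 days. Tagln2, the transgelin of many non-muscle cells, rose by 0.88 at 2 days (adjusted p = 7.77e-06, limma) and 1.10 at 10 days. Csrp1, a LIM protein of smooth muscle, rose by 0.99 at 20 days and 0.72 at 30 days. Against the other TA of the same rat Cnn2 and Csrp1 were called at these times as well, with log2 fold changes of 1.54, 1.09, 1.29 and 1.19 for Cnn2.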

How the data were processed

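RNA from 24 TA muscles of 12 rats, trained left and contralateral right, was sequenced by the authors (150-base paired-end reads, polyadenylated RNA). Per the study's methods and the submitters' processing notes, reads were mapped to Rnor_6.0 (rn6) by STAR within Partek Flow and assigned to transcripts of Ensembl. The main table deposited by the authors gives TPM-type values of 20027 transcripts, which account for length and sum to the same total in each muscle. Its gene-level companion, deposited as signal, served here as an alternative. Further columns hold the authors' own p-value, FDR and log2 ratio of each comparison, and none of it was used. The study describes its values as normalized by DESeq2, but the deposited transcript values are not whole and have equal totals (634431 per muscle), so they were read as TPM-type values. No table holds counts, so no count model was run, and the depth per muscle cannot be read from these values. No per-sample column was left unmapped (0).

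Each muscle was rescaled by the median ratio over the 16230 transcripts above 0 everywhere, and transcripts were summed per gene symbol. Genes with at least 1 in at least 3 muscles were kept. The log2(value + 1) values entered 1 model in limma 3.58.1 (R 4.3.3) of 5 groups (12 contralateral, 3 per trained time point), as the study pools its controls, and Benjamini-Hochberg adjustment at 0.05. Each sample is 1 animal and side. The alternative fit with the animal as a block rests on the labels, which give both sides of 1 rat. Deviations of the 2 muscles of a rat from their group means correlated with a median r of 0.17 (12 pairs, 0.03 to 0.34), against −0.01 over 132 pairs of different rats. Shares were compared by exact permutation. The scripts were tested on simulated data. No 2 muscles held identical values (276 pairs).

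The 8 genes and all lists were chosen with earlier results of these data known. The 8 genes are named throughout, and from each list and time point up to 3 called genes of the largest change with a group mean of at least 5, and for each gene up to 3 of the highest r. Not every gene under this rule is given. Alternatives were the values as deposited, a pseudocount of 0.1, no filter, the animal as a block, time-matched controls, the transcript with the highest mean, an intensity trend, an unadjusted p under 0.01 and leaving out each muscle. The gene-level signal table was added after seeing the data. Python 3.11.15, numpy 2.4.6, pandas 2.3.3 and matplotlib 3.10.9 were used.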

Additional observations from a re-analysis of the deposited data

Results flagged for a closer look

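The level of 1 gene in the trained muscles differed between time points. Tagln was lower after 30 days of training than after 2 days by a log2 difference of −0.87 (adjusted p = 0.0384, limma; the control group cancels in this contrast). The 2-day trained muscles were at 38.3, 48.8 and 39.0 and the 30-day ones at 28.3, 21.6 and 18.5, with no overlap. The contralateral muscles moved the same way, from 34.7, 31.5 and 39.9 at 2 days to 28.7, 18.2 and 16.3 at 30 days. The difference in trained level was −0.90 with a pseudocount of 0.1 (limma, adjusted p = 0.0513). With the animal as a block the contrast compares within-animal changes instead, and these differed by −0.11 (limma, adjusted p = 0.828).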

How the results depend on the processing

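Actb was called higher at 2, 10 and 20 days under all alternatives, and at 30 days under all but the transcript with the highest mean (0.41). With the replicate block (animal), 2 of the 7 genes were called at 2 days and 2 at 30 days, and 1377 of all genes at 30 days. Against time-matched controls 1 was called at 2 days and 1 at 10 days, and 2007, 1589 and 1121 of all genes at 10, 20 and 30 days. The transcript with the highest mean left 0 called at 30 days. Between 2 and 30 days 4 genes were called without rescaling, 4 on the gene-level signal table and 0 with a pseudocount of 0.1, with no filter, with the replicate block and with time-matched controls. Between 10 and 30 days there were 3 without rescaling and 4 on the signal table, and between 2 and 20 days 1 on the signal table. At an unadjusted p under 0.01, 2 genes differed among the contralateral groups. The Actc1 share over 12 animals (0.0674 percentage points) passed only with the replicate block. Beside the calls given gene by gene above, the replicate block changed no other call of the 7 genes.

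Directions turned in values that were not called. Actc1 was −0.0012 at 20 days with the replicate block and with time-matched controls, and −0.092 and −0.090 at 30 days on the unscaled values and the signal table. Myl9 at 30 days was −0.044 and −0.036 under the same pair. At 20 days, on the signal table, Acta2 was −0.036 and Tagln −0.039. Tagln at 30 days was 0.13 with the replicate block and with time-matched controls. Leaving out 1 muscle at a time gave −0.13 to 0.0074 for Acta1 at 30 days, −0.049 to 0.073 for Acta2 at 20 days, −0.15 to 0.42 for Actc1 at 30 days, −0.17 to 0.28 for Cnn1 at 20 days, −0.10 to 0.34 for Myl9 at 30 days, and −0.028 to 0.098 and −0.24 to 0.055 for Tagln at 20 and 30 days. The Actc1 share difference ran from 0.0419 to 0.177 at 2 days, 0.0470 to 0.194 at 10 days, −0.0168 to 0.0806 at 20 days and −0.0054 to 0.0218 at 30 days, and that of Actb from 0.137 to 0.293 at 10 days.

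Leaving out 1 muscle gave 1513 to 3505 genes at 2 days (lowest without trained replicate 2), 2147 to 3323 at 10 days (without trained replicate 1), 1734 to 2500 at 20 days and 1472 to 2440 at 30 days (1472 and 1492 without trained replicates 2 and 3). Of the 7 genes it left 1 to 6 called at 2 days (1 without trained replicate 2, 3 without trained replicate 3), 2 to 5 at 10 days (5 without the 2-day contralateral replicate 3) and 1 to 2 at 20 days. Between 2 and 30 days 0 to 2 were called, and between 10 and 30 days 0 to 1. The cause of these changes was not tested. Cnn1 was not tested on the signal table. Depth per muscle cannot be read from these values.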

Other observations

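Of 17 tested genes that fold and modify actin, 5 were higher at 2 days (15.4% of all genes were), 1 at 10 days and 0 at 20 and 30 days, and 1 was lower at 20 days, with a list median of 0.23, −0.01, 0.0041 and 0.04. The paired fit (animal as a block) called 2 higher at 2 days, where it called 11.8% of all genes, 1 at 10 days and 0 later. On the values as deposited 9 were higher at 2 days, where 2119 of all 11196 genes were. In that setting 2 were lower at 30 days, where 2590 of all genes were, and no fall of the list is read from this. Cct3, a subunit of the chaperonin that folds actin, rose by a log2 fold change of 1.00 at 2 days (adjusted p = 1.26e-05, limma) and 0.99 at 10 days. Naa80, the enzyme that acetylates the start of actin, rose by 0.60 at 2 days (0.0307), and was at 0.39 with the animal as a block (0.120). Cct6a fell by 0.29 at 20 days (0.0484) and was not called with the block.

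The unpaired counts below stand beside 15.4%, 15.6%, 11.7% and 11.1% of all genes called higher at 2, 10, 20 and 30 days. Those called lower were 13.5%, 13.3%, 9.64% and 9.46%. Of 8 fetal and cardiac-type muscle genes 4, 3, 0 and 1 were higher at 2, 10, 20 and 30 days, with a list median of 0.45, 0.38, −0.21 and 0.22. Paired within animals 3, 3, 0 and 0 were higher and 1 was lower at 30 days, and the 30-day median was 0.03. Myh8, neonatal myosin, rose from a control mean of 5.45 to 17.6 at 10 days (log2 fold change 1.54, adjusted p = 1.27e-05, limma). Its 30-day call (0.82) was lost with the animal as a block (adjusted p = 0.203). Myh3, embryonic myosin, rose by 0.89 at 2 days, a call lost with the animal as a block (adjusted p = 0.152), and by 1.33 at 10 days, and Myog, myogenin, by 1.41 at 2 days. Of 5 myogenic precursor markers 3, 2, 0 and 0 were higher. Of 6 endothelial markers 0, 3, 3 and 2 were higher and 1 was lower at 2 days. Of 5 fast fiber markers 2, 3, 3 and 2 were lower and 1 was higher at 10 days, with Pvalb, the calcium buffer of fast fibers, at −0.98 at 2 days and −3.16 at 30 days. Of 3 Schwann cell markers 1 was lower, at 30 days.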
